A study of Mus musculus with 20 samples.

Results

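The STAT factors and the SOCS inhibitors were followed in dendritic cells grown from murine bone marrow (BMDCs), treated with a bromodomain inhibitor and stimulated through Fcγ receptors. The genes were chosen by symbol, with earlier results of these data known. They were Stat2, Stat3, Stat4, Stat5a and Stat6 among the STAT factors and Socs1, Socs2, Socs3 and Cish among the inhibitors, which is 9 of the 24421 genes listed in the count table. All 9 were found there and all 9 passed the filter on low counts.

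BMDCs were grown for 8 days in GM-CSF at 40 ng/mL from the bone marrow of 5 wild-type C57BL/6 mice, labelled A to E, and bulk RNA-seq was performed on 20 libraries. Cells of each mouse were divided over 4 groups: DMSO with ovalbumin (DMSO Ova), DMSO with ovalbumin immune complexes (DMSO IC), iBET with ovalbumin (iBET Ova) and iBET with immune complexes (iBET IC). Immune complexes are antigen bound by IgG, which engage Fcγ receptors, and ovalbumin alone served as the control stimulus. iBET was I-BET151, a small molecule that blocks the acetyl-lysine pockets of BET proteins, at 3.3 μM, and the DMSO groups received 5% DMSO according to the labels, which name no solvent content beside iBET. Stimulation lasted 4 hours. The methods place the addition of iBET before stimulation, whereas the labels describe both as given together. The age of the mice is not given in the sources used here.

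Cytokines that bind receptors without a kinase domain of their own activate Janus kinases, which phosphorylate STAT proteins, and the STAT dimers then enter the nucleus and activate transcription. SOCS proteins, including CIS (encoded by Cish), are produced in response to this signal and bind the receptors or the kinases to switch it off, so the inhibitors are at once targets and brakes of the pathway. In GM-CSF cultures the receptor for GM-CSF signals through JAK2 and STAT5, and STAT proteins also carry the interferon, IL-6, IL-10, IL-4 and IL-12 signals by which dendritic cells read their surroundings.

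The libraries held 16447491 to 29245150 counts in all, with a median of 21764663, and each gene of the set had between 79 and 7821 counts in a library. Values are counts scaled to library size by TMM and given as CPM, and calls are an adjusted p below 0.05 in the quasi-likelihood test of edgeR over 12465 tested genes. Markers of dendritic cells (10 genes) summed to between 4535 and 9298 CPM in every library, but did not move alike. From DMSO to iBET with Ova, the means of Itgax (1962 to 2108 CPM) and Cd74 (2661 to 3169 CPM) rose. Those of Irf4 (292 to 163 CPM), Batf3 (18.7 to 5.57 CPM), Clec9a (5.56 to 2.45 CPM) and Flt3 (3.03 to 0.242 CPM) fell. H2-Aa (446 to 396 CPM), H2-Ab1 (289 to 287 CPM) and Zbtb46 (24.5 to 20.0 CPM) moved less, and Xcr1 had at most 2 counts. T cell markers (5 genes in the table) stayed at or below 0.848 CPM in sum and B cell markers (5 genes) at or below 0.772 CPM. Macrophage and monocyte markers (7 genes, among them Adgre1 and Csf1r) were also present, at 786 to 2163 CPM in sum. Neutrophil markers (7 genes in the table) summed to 12.1 to 51.3 CPM, plasmacytoid dendritic cell markers (4 genes) to 40.6 to 71.6 CPM, mast cell and basophil markers (6 genes) to 0.808 to 3.05 CPM and erythroid markers (4 genes) to 0.962 to 15.6 CPM. Of the plasmacytoid dendritic cell markers, Siglech had 0 counts in every library and Ccr9 at most 8. Bst2 and Tcf4 made up nearly all of their sum.

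Sequences near the start sites are shown because STAT dimers and interferon-activated complexes bind known motifs there. Promoter windows from 250 bases before to 50 bases after each start were taken from RefSeq (GRCm38.p6) for 8 of the 9 genes (all but Socs2), with a second start for Stat4 and Stat5a, which gave 10 windows. The motifs searched, on either strand, were TTCNNNGAA (the palindrome of most STAT dimers), TTCNNNNGAA (the wider palindrome known for STAT6) and GAAANNGAAA (an interferon response repeat). In all 32851 RefSeq windows of this length, TTCNNNGAA was held by 8.3%, TTCNNNNGAA by 6.95% and GAAANNGAAA by 3.44%. The matches are listed below 5′ to 3′ along the strand of the gene, each with 6 flanking bases and with the motif in capitals.
Socs3, chr11:117969512-117969520, minus strand: ccagccTTCTTAGAAgggagg
Cish, first match, chr9:107296659-107296667, plus strand: ccagttTTCCTGGAAagttct
Cish, second match, chr9:107296670-107296678, plus strand: ggaaagTTCTTGGAAatctgt
Socs1, first match, chr16:10785610-10785619, minus strand: ttgccgGAAAGAGAAAccgaaa
Socs1, second match, chr16:10785604-10785613, minus strand: gaaagaGAAACCGAAAgcgggg
Stat2, wider palindrome, chr10:128270288-128270297, plus strand: tttcctTTCCCTAGAActcacg
Stat2, interferon repeat on the other strand, chr10:128270276-128270285, plus strand: ccctggTTTCAGTTTCctttcc
Stat4, second start, chr1:52008143-52008152, plus strand: tcttcaGAAAGTGAAAtttaga

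Counted from the start, with negative numbers before it, the match of Socs3 covered bases -154 to -146 and those of Cish bases 1 to 9 and 12 to 20. The Socs1 matches overlapped each other, at -83 to -74 and -77 to -68. Those of Stat2 lay at -210 to -201 and -222 to -213, and that of Stat4 at -97 to -88 before its second start. By the GENCODE annotation, the 250 bases before the start lie within the gene itself for the second start of Stat4, both starts of Stat5a, Socs3 and Cish. Of them, 175 and 139 lie in exons for the first and second start of Stat5a, 77 for Socs3, 250 for Cish and 0 for the second start of Stat4. The windows of Stat3, Stat5a (both starts), Stat6 and the first start of Stat4 held none of these letters. The 250 bases before the start are printed for Stat6 and for the first start of Stat4, as the windows without a match that belong to the most precisely measured fall and the largest fall with iBET.
Stat6, chr10:127642736-127642985, plus strand: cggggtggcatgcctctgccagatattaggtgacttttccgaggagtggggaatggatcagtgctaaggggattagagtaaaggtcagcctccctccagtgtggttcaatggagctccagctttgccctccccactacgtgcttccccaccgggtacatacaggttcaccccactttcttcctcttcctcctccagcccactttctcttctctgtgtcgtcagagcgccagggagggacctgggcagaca
Stat4, first start, chr1:51986898-51987147, plus strand: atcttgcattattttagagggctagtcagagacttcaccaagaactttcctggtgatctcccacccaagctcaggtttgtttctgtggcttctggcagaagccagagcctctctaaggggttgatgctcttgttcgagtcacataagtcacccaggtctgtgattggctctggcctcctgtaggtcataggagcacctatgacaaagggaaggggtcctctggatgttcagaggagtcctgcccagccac

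**Figure D1:**
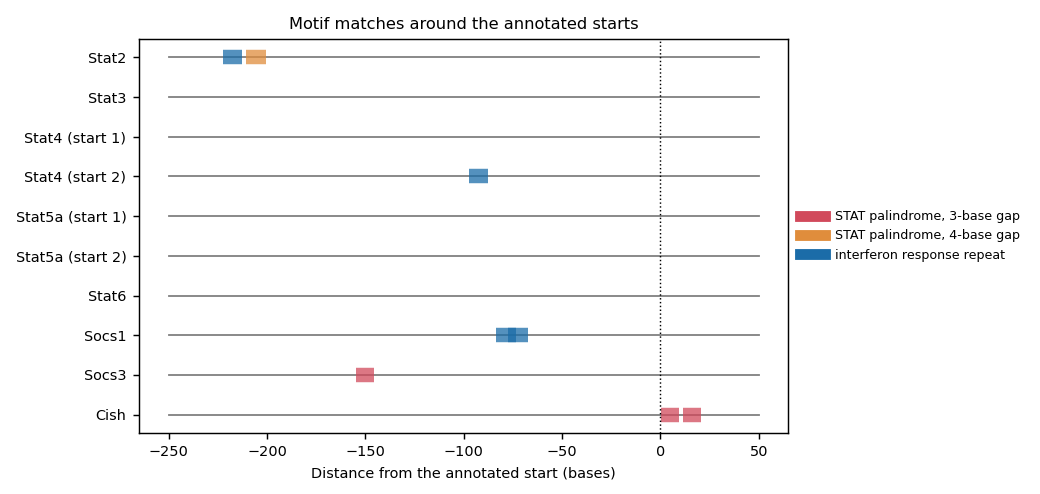
Positions of motif matches in the promoter windows, with the distance from the annotated start in bases on the x axis and 1 line for each of the 10 windows. Coloured blocks are matches to the STAT palindromes or to the interferon response repeat; the windows of Stat3, Stat5a, Stat6 and the first start of Stat4 hold none.

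The question of the iBET comparison was which parts of the STAT pathway differ in BMDCs when BET proteins are inhibited, under either stimulus. With Ova, Stat4, Stat6 and Socs2 fell and Socs3 rose with iBET, so 4 of the 9 genes passed the test, against 56.6% of all genes tested (27.7% higher and 28.9% lower). With IC the calls were these 4 and Stat5a, which fell, so 5 of 9 passed, against 56.1% of all genes (27.1% higher and 29% lower). These shares of the 9 genes lay near the background. Since the cells of each mouse were in every group, the mouse could be held as a block. With it 8 genes passed with Ova, where the background was 68.7%, and 7 with IC, where it was 68%. The genes added with Ova were Stat2, Socs1 and Cish (higher) and Stat5a (lower), and with IC Stat2 and Stat3 (higher).

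**Figure D2:**
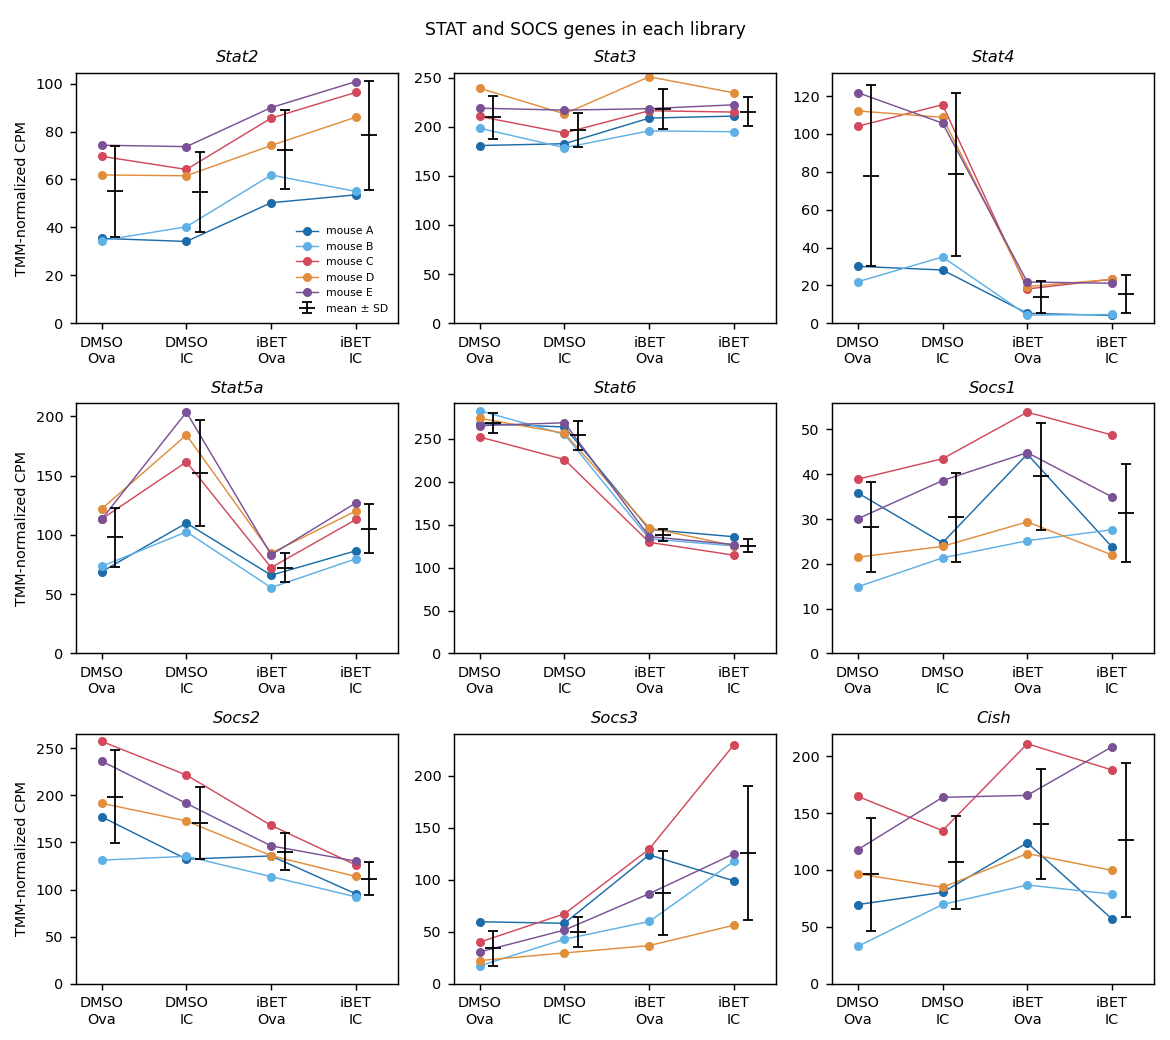
TMM-normalized CPM (y axis, from 0) of each gene in the 4 groups (x axis), with 1 coloured line for each mouse and a black bar for the mean ± SD of 5 mice. Stat4 and Stat6 are lower with iBET in each mouse without overlap between the groups, Socs3 is higher in each mouse, and Stat4 separates mice A and B from mice C, D and E.

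Stat6, on chromosome 10 from 127642986 to 127660957 (GRCm38, plus strand), transmits the IL-4 and IL-13 signals. Its level with DMSO and Ova was 268, 283, 252, 274 and 265 CPM in mice A, B, C, D and E, and with iBET and Ova it was 145, 134, 129, 146 and 136 CPM. All iBET libraries lay well below all DMSO libraries. Its log2 fold change was -0.96 (SE 0.0592, 1.94-fold lower, edgeR adjusted p = 7.56e-11). With IC the levels were 264, 255, 226, 256 and 269 CPM with DMSO and 136, 125, 114, 126 and 127 CPM with iBET. These groups did not overlap either, and the log2 fold change was -1.02 (SE 0.0593, 2.02-fold lower, edgeR adjusted p = 3.25e-11). The spread between mice was 4.21% to 6.57% of the group mean, the smallest of the 9 genes. The summed macrophage and monocyte markers were also lower with iBET. With Ova they were at 1743 to 2163 CPM with DMSO and 786 to 1095 CPM with iBET. With IC they were at 1480.4 to 1910 CPM with DMSO and 826 to 1212 CPM with iBET. The markers did not move alike. With Ova the means of Csf1r (1032 to 582 CPM), Ccr2 (487 to 15.0 CPM), Fcgr1 (62.7 to 14.7 CPM) and Cd14 (104 to 60.3 CPM) fell with iBET. Adgre1 (163 to 146 CPM), Mertk (78.8 to 71.8 CPM) and Ly6c2 (30.4 to 30.9 CPM) moved little. The part of these markers in the Stat6 result was not tested. In bulk RNA, fewer cells of a type and less RNA per cell cannot be told apart.

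Stat4, on chromosome 1 from 51987148 to 52107189 (GRCm38, plus strand), carries the IL-12 signal. With DMSO and Ova it stood at 30.1, 21.9, 104, 112 and 122 CPM in mice A, B, C, D and E. With iBET and Ova the values were 5.25, 4.28, 18.1, 19.4 and 21.8 CPM. The highest iBET library lay just under the lowest DMSO library, although each mouse differed from itself by a log2 difference between -2.53 and -2.36. The fall was -2.50 on the log2 scale (SE 0.628, 5.66-fold lower, edgeR adjusted p = 0.00208). With IC, Stat4 was at 28.2, 35.0, 115, 109 and 106 CPM with DMSO and at 4.18, 4.66, 23.3, 23.2 and 21.1 CPM with iBET. The groups again did not overlap, with differences within mice from -2.91 to -2.23. It came to -2.38 on the log2 scale with IC (SE 0.624, 5.21-fold lower, edgeR adjusted p = 0.00301). These errors hold the spread between mice. The fit with the mouse as a block gave -2.49 with Ova (SE 0.110, edgeR adjusted p = 7.5e-13) and -2.47 with IC (SE 0.109, edgeR adjusted p = 6.73e-13).

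Mice A and B stood apart from mice C, D and E in Stat4, with lower levels in all 4 groups and no overlap between these sets of mice within any group. The labels name no batch for them. The log2 fold change of Stat4 was -2.45 (Ova) and -2.82 (IC) in mice A and B alone. In the other set, mice C to E, it was -2.46 and -2.26. Both sets gave values close to those of the pooled fit. The 7 markers of mature dendritic cells (Ccr7, Fscn1, Ccl22, Cd40, Il12b, Relb and Cacnb3) followed the same division. Their summed level with DMSO and Ova was 961 and 801 CPM in mice A and B and 3226, 2985 and 2723 CPM in mice C, D and E. With DMSO and IC it was 1054, 1177, 3313, 3103 and 3341 CPM in mice A to E, with iBET and Ova 521, 400.3, 1672, 1522 and 1637 CPM, and with iBET and IC 581, 569, 2131, 1937 and 2000.2 CPM. Their part in the Stat4 result was not tested. Natural killer cells also express Stat4, and of the 6 markers of these cells Ncr1, Eomes, Prf1 and Gzma each had at most 2 counts in any library. The 6 markers summed to 1.70 to 6.48 CPM with DMSO and to 0.121 to 0.572 CPM with iBET, most of it Klrk1.

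**Figure D3:**
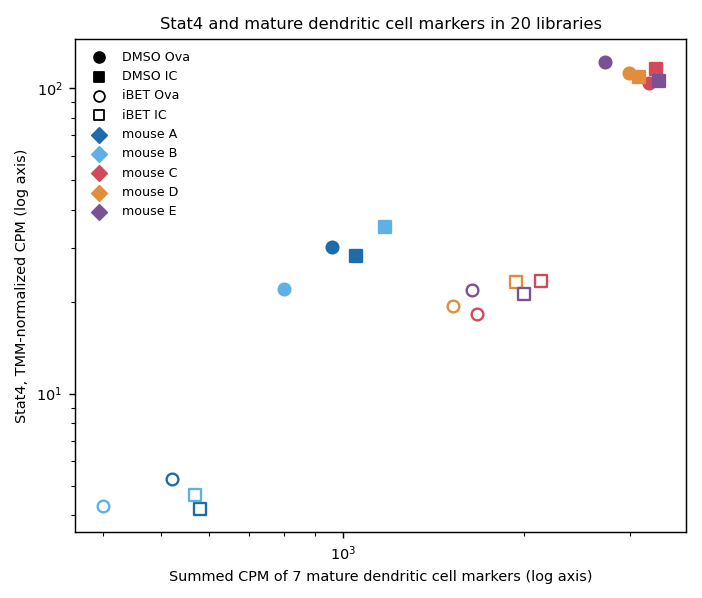
Stat4 in TMM-normalized CPM (y axis, log scale) against the summed CPM of 7 markers of mature dendritic cells (x axis, log scale) in 20 libraries, coloured by mouse, filled for DMSO and open for iBET. Libraries of mice A and B lie to the left of and below those of mice C, D and E within each group, and iBET libraries lie below the DMSO libraries of the same mouse.

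Stat5a, on chromosome 11 from 100859351 to 100885169 (GRCm38, plus strand), is activated by GM-CSF, IL-2 and IL-7 receptors. With Ova its levels were 69.0, 73.5, 113, 122 and 113 CPM with DMSO and 66.0, 55.6, 72.5, 84.6 and 83.3 CPM with iBET. Every mouse was lower with iBET, mouse A only slightly, and the groups overlapped. Its log2 fold change of -0.44 (SE 0.204) did not pass the test over groups (edgeR adjusted p = 0.0723), yet passed with the mouse as a block (edgeR adjusted p = 4.39e-05). With IC the levels were 110.0, 103, 162, 184 and 204 CPM with DMSO and 86.6, 79.8, 113, 120.2 and 127 CPM with iBET. The groups overlapped and every mouse was lower with iBET. This difference passed, at a log2 fold change of -0.53 (SE 0.203, 1.45-fold lower, edgeR adjusted p = 0.031), and was not past the threshold when mouse C, D or E was left out (edgeR adjusted p up to 0.0955).

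The count of Stat5a has 2 limits. Its end overlaps the end of Stat3 on the opposite strand (Stat3 runs from 100885098 to 100939540 on chromosome 11), and the strand setting of the counting is not given in the sources used here. Stat5b is a close copy, so reads that fit both may be split between them. Stat5b itself fell with iBET, with a log2 fold change of -0.51 (SE 0.111, edgeR adjusted p = 0.000591) with Ova and -0.66 (SE 0.111, edgeR adjusted p = 4.21e-05) with IC.

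Stat2, on chromosome 10 from 128270559 to 128292849 (GRCm38, plus strand), encodes a factor that type I interferons activate. With Ova it was measured at 35.4, 34.5, 69.6, 61.9 and 74.3 CPM with DMSO and at 50.3, 61.9, 85.6, 74.2 and 90.0 CPM with iBET. With IC it was at 34.1, 40.3, 64.2, 61.5 and 73.7 CPM with DMSO and at 53.6, 55.0, 96.3, 86.0 and 101 CPM with iBET. Each mouse was higher with iBET under both stimuli, but mice A and B were lower than the others in every group and the groups overlapped. The log2 fold changes were 0.39 (SE 0.258, edgeR adjusted p = 0.205) and 0.51 (SE 0.258, edgeR adjusted p = 0.0977), neither of which passed. With the mouse as a block both passed, with log2 fold changes of 0.43 and 0.52 (edgeR adjusted p = 1.27e-05 and 1.18e-06).

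Stat3, which carries the IL-6 and IL-10 signals, lay within a narrow range. The lowest, median and highest values were 181, 210.4 and 239 CPM in the DMSO Ova group and 179, 194 and 217 CPM in the DMSO IC group. They were 196, 216 and 251 CPM in the iBET Ova group and 195, 215 and 234 CPM in the iBET IC group. Its groups overlapped throughout. iBET gave a log2 fold change of 0.06 under Ova (SE 0.0818, edgeR adjusted p = 0.573). Under IC it was 0.13 (SE 0.0818, edgeR adjusted p = 0.189), with 5 of 5 mice higher, and the fit with the mouse as a block passed (edgeR adjusted p = 0.015).

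**Figure D4:**
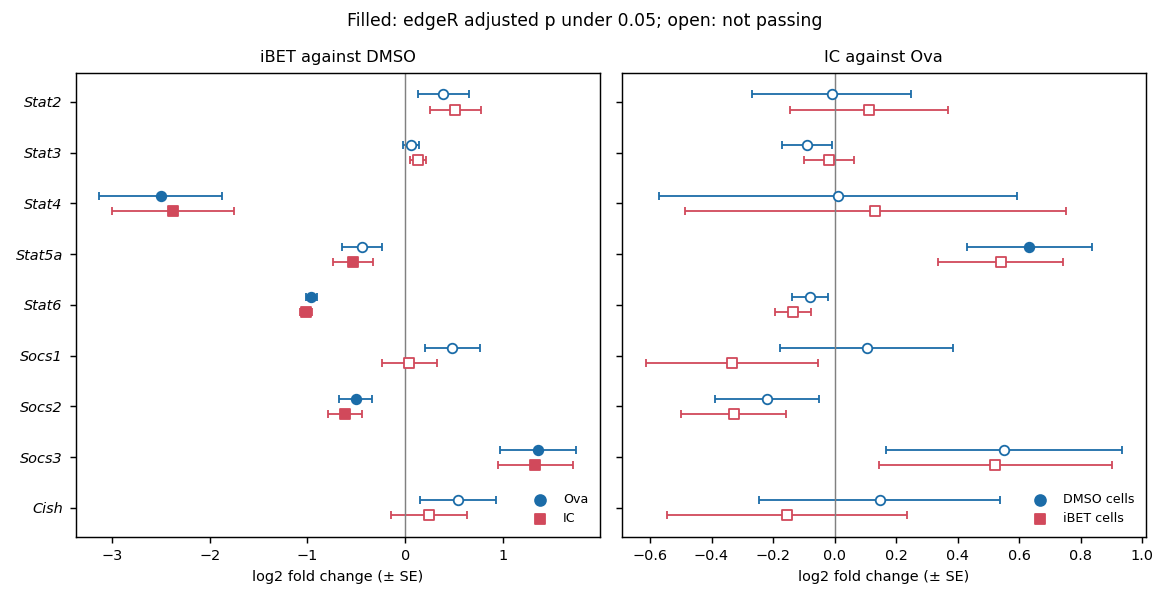
Log2 fold changes (x axis, points with bars of ± 1 SE from edgeR) of the 9 genes for iBET against DMSO (left) and IC against Ova (right), with filled symbols for an adjusted p under 0.05. On the left Stat4, Stat6 and Socs2 are filled below 0 and Socs3 above 0 under both stimuli, and Stat5a with IC only; on the right Stat5a in DMSO is the filled point.

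Among the inhibitors, Socs3 had the largest difference. Its protein blocks JAK activity at receptors that use gp130, and its gene lies on chromosome 11 from 117966079 to 117970047 (GRCm38, minus strand). With Ova, Socs3 stood at 59.5, 17.2, 39.9, 22.2 and 30.5 CPM in mice A, B, C, D and E with DMSO and at 124, 59.8, 129, 36.6 and 86.5 CPM with iBET. Each mouse was higher with iBET, but the mice differed so much that the groups overlapped, mouse D with iBET being below mouse A with DMSO. The rise was 1.36 on the log2 scale (SE 0.387, 2.57-fold higher, edgeR adjusted p = 0.00544). With IC the levels were 58.1, 42.8, 67.2, 29.6 and 51.6 CPM with DMSO and 98.8, 118, 229.7, 56.2 and 125 CPM with iBET. Mouse D was again the lowest and mouse C the highest with iBET. The rise here was 1.33 on the log2 scale (SE 0.385, 2.52-fold higher, edgeR adjusted p = 0.00604). The fit with the mouse as a block gave 1.31 with Ova (SE 0.198, edgeR adjusted p = 1.16e-05) and 1.29 with IC (SE 0.195, edgeR adjusted p = 1.13e-05). In mice A and B alone the values were 1.24 for Ova (edgeR adjusted p = 0.067) and 1.12 for IC (edgeR adjusted p = 0.0912). In the other mice, C to E, they were 1.495 and 1.497 (edgeR adjusted p = 0.019 and 0.0173).

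Socs2, on chromosome 10 from 95385362 to 95417180 (GRCm38, minus strand), restrains growth hormone and other STAT5 signals. Its levels with Ova were 177, 131, 257, 192 and 236 CPM with DMSO and 136, 114, 168, 136 and 146 CPM with iBET. All mice were lower with iBET, and the groups overlapped only through the DMSO library of mouse B. Socs2 had a log2 fold change of -0.51 (SE 0.17, 1.42-fold lower, edgeR adjusted p = 0.0159), which did not pass without mouse D or without mouse E (edgeR adjusted p up to 0.0695). With IC the levels were 132, 135, 222, 173 and 191 CPM with DMSO and 95.4, 92.3, 126, 114 and 130.1 CPM with iBET. Here the groups did not overlap, and the log2 fold change was -0.61 (SE 0.17, 1.53-fold lower, edgeR adjusted p = 0.00456). The fit with the mouse as a block gave -0.48 with Ova (SE 0.0701, edgeR adjusted p = 7.16e-06) and -0.60 with IC (SE 0.0704, edgeR adjusted p = 4.72e-07). Without overlap were thus 2 of the 9 genes with Ova (Stat4 and Stat6), against 38% of all genes, and 3 with IC (these and Socs2), against 42.8% of all genes.

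Socs1, which restrains interferon signals by blocking JAK kinases, lies on chromosome 16 from 10782240 to 10785536 (GRCm38, minus strand). With Ova it was at 35.8, 14.9, 38.9, 21.5 and 30.1 CPM with DMSO and 44.5, 25.2, 53.8, 29.4 and 44.8 CPM with iBET. With IC it was at 24.7, 21.3, 43.5, 23.9 and 38.6 CPM with DMSO and 23.8, 27.6, 48.7, 22.0 and 34.9 CPM with iBET. Each mouse was higher with iBET under Ova, whereas under IC 2 were higher and 3 lower. The log2 fold change of 0.48 with Ova (SE 0.281) did not pass over groups (edgeR adjusted p = 0.15) and passed with the mouse as a block (edgeR adjusted p = 0.00321), and that with IC was 0.04 (SE 0.281, edgeR adjusted p = 0.908).

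Cish, an early STAT5 target whose protein binds activated cytokine receptors, lies on chromosome 9 from 107296026 to 107302784 (GRCm38, plus strand). Its levels with Ova were 69.5, 32.8, 165, 96.7 and 118 CPM with DMSO and 124, 86.7, 211, 114 and 166 CPM with iBET. Its levels with IC were 80.3, 69.6, 135, 84.7 and 164 CPM with DMSO and 56.9, 78.7, 188, 99.6 and 208 CPM with iBET. All mice were higher with iBET under Ova, and all but mouse A under IC, with wide overlap. For Cish the log2 fold change under Ova was 0.54 (SE 0.392, edgeR adjusted p = 0.249), which passed with the mouse as a block (edgeR adjusted p = 0.00384), and 0.24 with IC (SE 0.391, edgeR adjusted p = 0.62). In mice A and B alone the values of Cish were 1.03 and -0.12, against 0.42 and 0.40 in the other 3 mice.

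The comparison of IC with Ova asked what Fcγ receptor stimulation does in cells with and without BET inhibition. In DMSO cells Stat5a rose with IC and was the single gene of the 9 to pass, against 20.3% of all genes. The levels given above were higher with IC in 5 of 5 mice, by a log2 fold change of 0.63 (SE 0.203, 1.55-fold higher, edgeR adjusted p = 0.0329). This call was not past the threshold when mouse C, D or E was left out (edgeR adjusted p up to 0.107) or when the libraries were scaled by library size alone. In iBET cells Stat5a was higher with IC in 5 of 5 mice too, at 0.54 (SE 0.204), without passing over groups (edgeR adjusted p = 0.0916), and passed with the mouse as a block (edgeR adjusted p = 2.56e-05). Stat5b, its close copy, rose with IC in DMSO cells by 0.53 on the log2 scale (edgeR adjusted p = 0.00238) and in iBET cells by 0.38 (edgeR adjusted p = 0.0309).

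In iBET cells 0 of the 9 genes passed in edgeR over groups, against 11.8% of all genes. At an unadjusted p under 0.05 there were 2 (Stat5a and Stat6), and 0 passed in DESeq2 and 0 in limma. With the mouse as a block 3 genes passed in DMSO cells (38.1% of all genes) and 4 in iBET cells (28.9% of all genes). They were Stat5a and Socs3 (higher with IC) and Socs2 (lower) in both, and Stat6 (lower) in iBET cells. Socs3 was higher with IC in 4 of 5 mice, all but mouse A, under both treatments. Its log2 fold change was 0.55 (SE 0.384) in DMSO cells, with an edgeR adjusted p of 0.343 and of 0.0289 with the block. In iBET cells it was 0.52 (SE 0.378), with an edgeR adjusted p of 0.419 and of 0.035 with the block. Socs2 had -0.22 in DMSO cells (SE 0.17, edgeR adjusted p = 0.4, with the block 0.0232) and -0.33 in iBET cells (SE 0.17, edgeR adjusted p = 0.232, with the block 0.00186). Stat6 had -0.14 (SE 0.0588) in iBET cells, lower in 5 of 5 mice (edgeR adjusted p = 0.144, with the block 0.0227). Without overlap between IC and Ova were 0 of the 9 genes under either treatment, against 12.4% of all genes in DMSO cells and 10% in iBET cells.

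Stat2, Stat3, Stat4, Socs1 and Cish did not pass in either comparison of IC with Ova, with or without the block. Their log2 fold changes lay between -0.09 and 0.15 in DMSO cells and between -0.33 and 0.13 in iBET cells. The precision differed among them, from an SE of 0.0818 for Stat3 to 0.621 for Stat4 in iBET cells. A change in Stat4 of the size seen for Stat5a was thus not detectable over groups. With the mouse as a block the SE of Stat4 was smaller. Its log2 fold change was then 0.08 (SE 0.098) in DMSO cells and 0.10 (SE 0.117) in iBET cells, below the values of Stat5a.

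Whether the effect of iBET differed between IC and Ova was tested as an interaction. In edgeR 0 of the 9 genes passed, against 0.0401% of all genes (5 of 12465), and 0 had an unadjusted p under 0.05. With the block, DESeq2 or limma the count was also 0, where edgeR with the block called 0.818% of all genes. In the fit over groups the interaction furthest from 0 was that of Socs1, at -0.44 on the log2 scale (SE 0.397, unadjusted p = 0.281), with 5 of 5 mice below 0 at values from -0.72 to -0.30. With the block it was -0.44 for Socs1 and -0.46 for Cish. In the fit over groups that of Cish was -0.30 (SE 0.553), with mice A and B at -1.33 and -1.23 and mice C, D and E between -0.15 and 0.12.

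Per kilobase of annotated exon, the order of the levels differed between groups. With DMSO and Ova, Stat6 was the highest at 61.0 ± 2.57 CPM per kb (SD, n = 5). Stat3 at 22.0 ± 2.29, Socs2 at 20.8 ± 5.23 and Stat4 at 20.1 ± 12.4 CPM per kb (SD, n = 5 each) followed without separating from each other beyond their spread. Cish (15.0 ± 7.75), Stat5a (13.8 ± 3.49), Socs3 (11.7 ± 5.79), Socs1 (9.71 ± 3.43) and Stat2 (9.31 ± 3.20 CPM per kb, SD, n = 5 each) had lower means, with ranges that overlapped between neighbours. With iBET and Ova, Stat6 still had the highest mean at 31.4 ± 1.64 CPM per kb, with Socs3 at 30.2 ± 13.9 CPM per kb (SD, n = 5 each). With iBET and IC, Socs3 had the highest mean at 43.4 ± 22.2 CPM per kb, ahead of Stat6 at 28.5 ± 1.73 CPM per kb (SD, n = 5 each). In both of these groups the spread of Socs3 spanned the level of Stat6. Stat4 was then the lowest, at 3.95 ± 2.57 CPM per kb (SD, n = 5).

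The other genes of the pathway were grouped by role, 75 genes tested in all. With iBET 48 of them passed with Ova (11 higher and 37 lower), against 56.6% of all genes, and 49 with IC (14 higher and 35 lower), against 56.1% of all genes. Their median log2 fold change was -0.40 and -0.36, whereas the median of all genes tested was -0.0029 and -0.0054. For IC against Ova 19 passed in DMSO cells (11 higher and 8 lower), against 20.3% of all genes, and 13 in iBET cells (9 higher and 4 lower), against 11.8%. For the interaction 0 passed in edgeR (0.0401% of all genes), where 4 had an unadjusted p under 0.05, and 1 passed with the block (0.818% of all genes). In DESeq2 0 passed without the block and 2 with it, and 0 passed in limma.

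**Figure D5:**
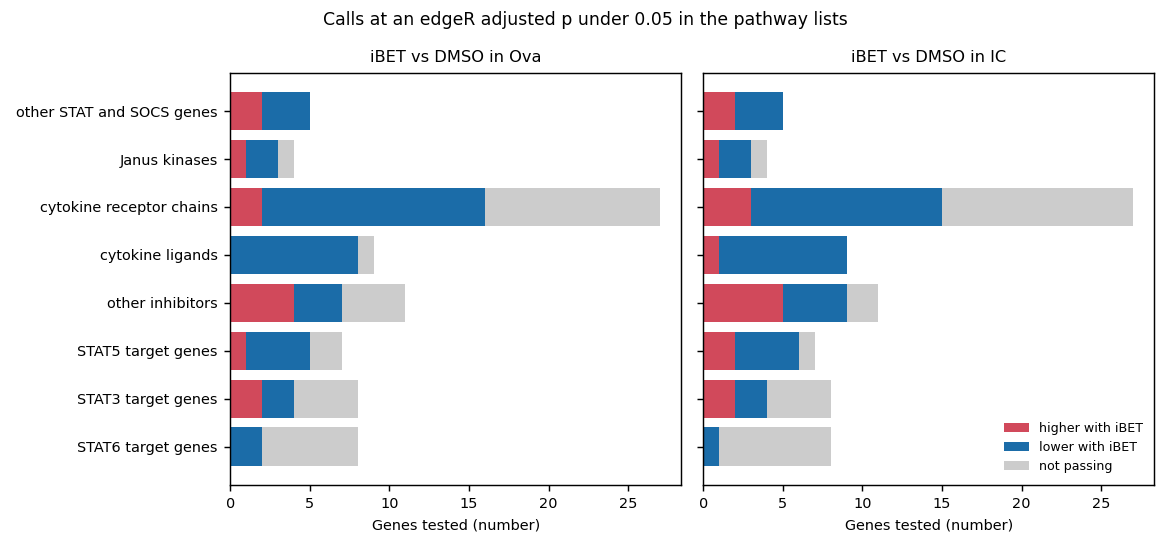
Number of genes tested (x axis) in each list of the pathway, split into those higher with iBET, lower with iBET and not passing at an edgeR adjusted p under 0.05, with Ova (left) and IC (right). Among the ligands 8 are lower with iBET under each stimulus, and the inhibitors hold both directions.

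Of the other STAT and SOCS genes, 5 of 5 passed under both stimuli, 2 higher and 3 lower. Socs7 rose, with log2 fold changes of 1.07 with Ova (SE 0.06, edgeR adjusted p = 1.81e-11) and 1.08 with IC (SE 0.0599, edgeR adjusted p = 1.65e-11), and Socs4 rose by 0.41 and 0.27. Socs5 fell, with -0.51 and -0.49, as did Stat5b and Socs6. Of the 4 Janus kinases, 1 rose and 2 fell under each stimulus. Jak2, the kinase of the GM-CSF receptor, had log2 fold changes of -1.02 (SE 0.33, edgeR adjusted p = 0.0127) and -0.997 (SE 0.329, edgeR adjusted p = 0.0145). Tyk2 fell (-0.58 and -0.44), and Jak1 rose (0.17 and 0.19).

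Of 27 cytokine receptor chains tested, 2 rose and 14 fell with Ova and 3 rose and 12 fell with IC. Csf2rb, the shared chain of the GM-CSF, IL-3 and IL-5 receptors, rose by 0.66 and 0.76 on the log2 scale (edgeR adjusted p = 8.55e-07 and 1.17e-07). Ifnar1, a chain of the type I interferon receptor, rose under both stimuli (0.19 and 0.14), and Lifr, the LIF receptor, rose with IC (1.16) and had 0.60 with Ova, which did not pass (edgeR adjusted p = 0.165). Il2ra, the high-affinity chain of the IL-2 receptor, fell, with log2 fold changes of -3.02 and -2.99 (edgeR adjusted p = 0.000594 and 0.000708), and so did Il7r, a chain of the IL-7 receptor, with -2.76 and -2.84 (edgeR adjusted p = 2.95e-09 and 1.68e-09). Of 22 ligands listed, 9 passed the filter on low counts. Of these 9, 8 fell under either stimulus. Of all genes, 28.9% (Ova) and 29% (IC) were lower. Some of the 8 had few counts, with a mean over the libraries as low as 7.1. With Ova, Il4, Il7 and Lif had means of 0.437, 1.28 and 0.890 CPM with DMSO and 0.145, 0.306 and 0.186 CPM with iBET. Genes at such levels can pass the filter through their DMSO libraries alone, and a fall with iBET is then partly set by the filter. The count of 8 is for that reason a description and is not compared with the share of all genes. Il12b, which encodes a subunit of the IL-12 that activates STAT4, fell, with -2.62 under Ova and -1.99 under IC (edgeR adjusted p = 3.56e-06 and 2.43e-05), and Il15 fell (-0.92 and -1.19). Osm rose with IC (0.62) and had 0.11 with Ova, which did not pass (edgeR adjusted p = 0.691).

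Of 11 other inhibitors of the pathway, 4 rose and 3 fell with Ova and 5 rose and 4 fell with IC. Pias3, an inhibitor of STAT3, rose by 0.55 and 0.67 on the log2 scale (edgeR adjusted p = 0.00166 and 0.000321), and Sh2b3 (0.63 and 0.61) and Ptpn11 (0.51 and 0.61) rose under both stimuli as well. Usp18, which restrains the type I interferon receptor, fell, with -2.35 and -2.24 (edgeR adjusted p = 1.43e-09 and 2.14e-09). Ptpn6, the phosphatase SHP-1, fell, with -1.25 and -1.31 (edgeR adjusted p = 2.95e-10 and 1.51e-10).

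Known targets of the factors were counted beside them. Of 7 targets of STAT5, 4 fell under either stimulus, among them Il2ra and the repressor Bcl6 (-1.69 and -1.28). The kinase gene Pim1 rose (0.69 and 0.68), as did Osm with IC.

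Of 8 targets of STAT3, 2 rose and 2 fell. Cebpd, a transcription factor of the acute phase response, rose by 1.39 and 1.03 (edgeR adjusted p = 9.07e-09 and 5.22e-07), and Bcl3 (-2.55 and -2.69) and Tnfaip3 (-1.75 and -1.48) fell. Of 8 targets of STAT6 tested, 2 fell with Ova and 1 with IC. With the mouse as a block 4 were lower and 1 higher with Ova, and 3 lower and 1 higher with IC. Of all genes, 68.7% (Ova) and 68% (IC) passed with the block. Arg1, arginase, fell, with -1.72 and -1.85 (edgeR adjusted p = 2.34e-05 and 1.05e-05), and Mgl2, a lectin, fell by 0.27 with Ova (edgeR adjusted p = 0.0184). Stat6 itself fell under both stimuli, and the median log2 fold change of its targets was -0.17 and -0.09.

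Across the 20 libraries, which share mice and treatments, the levels of some genes of the set ran in parallel. On log2 CPM, Pearson's r was 0.86 between Stat4 and Socs2, 0.84 between Socs1 and Cish, 0.81 between Stat2 and Cish and -0.76 between Stat6 and Socs3. Among all genes tested the pattern most like that of Stat4 belonged to Gm13546 (r = 0.996) and Mmp25 (r = 0.990), and that most like Stat6 to Gna15 (r = 0.993) and Sash3 (r = 0.991). For Stat2 they were Pik3r1 (0.953) and Vdr (0.952), for Stat3 Rab43 (0.901) and Cd300lg (0.896), and for Stat5a Plekhm2 (0.960) and Mreg (0.958). For Socs1 they were Siah2 (0.908) and E130309D02Rik (0.859), for Socs2 Timp3 (0.973) and Etl4 (0.965), for Socs3 Hbegf (0.923) and 2410131K14Rik (0.913), and for Cish Cacna1b (0.943) and Adar (0.912). These coefficients describe 20 libraries from 5 mice and carry no test.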

How the data were processed

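Bulk RNA-seq of BMDCs was analysed in 20 libraries (5 mice in each of 4 groups). As the methods and the labels' processing notes state, the authors trimmed the reads and used HISAT2 (mm10) for alignment and featureCounts for counting. The authors deposited raw counts per gene and library. A further deposited table holds signal values, each library's counts over its own size factor. The annotation and strand setting of the counting are not given in the sources used here. Gene positions and exon lengths came from GENCODE M21 (GRCm38), and promoter windows from RefSeq (GRCm38.p6).

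Of 24421 genes, 6187 had no count, and 12465 were kept by filterByExpr. They were normalized with TMM (factors 0.924 to 1.08) and tested by quasi-likelihood in edgeR 4.0.16 (R 4.3.3), with group as the only factor and 20 libraries in one fit. The Benjamini-Hochberg adjustment ran over all genes tested, at a threshold of 0.05. Log2 CPM used a prior count of 2. Libraries of the same group differed by more than counting error, so errors are SD between mice. Replicates were paired by animal, as the labels give the mouse. Deviations from the group means were correlated within mice (r across genes 0.307 to 0.675, mean 0.524, in 30 pairs). Between different mice r was -0.576 to 0.557 (mean -0.127, 120 pairs), so the 2 ranges overlapped. Alternatives were the mouse as a replicate block, DESeq2 1.42.0 with and without it, DESeq2 size factors or library size alone, no filter, surrogate variables (sva 3.50.0, 3 variables), the deposited signal values as log2(value + 1) in limma 3.58.1, each mouse left out, mice A and B only, and mice C, D and E only. The fits were tested on simulated data.

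The genes of the set, the pathway and marker lists and the 2 sets of mice were chosen with earlier results of these data known. Beside the 9 genes, the text names in each pathway list and iBET comparison up to 2 that rose and 2 that fell with the largest log2 fold change among passing genes with 100 counts or more on average, and for each of the 9 genes the 2 with the highest Pearson correlation over 20 libraries. Socs6 falls outside that rule and was named after its values were seen. Some genes and 1 list are not reported here and were left out of the counts and sums.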

Additional observations from a re-analysis of the deposited data

How the results depend on the processing

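The 9 genes in 5 comparisons gave 675 values under 15 alternatives. Of these, 591 kept their direction and side of the threshold, 12 lost the call, 42 gained one and 30 changed sign, all of the last in values that had not passed. The calls of Stat4 and Stat6 with iBET held under all 15, and so did that of Socs2 with IC.

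The mouse as a replicate block, DESeq2 with that block and surrogate variables each gave 8 called genes of the set with iBET and Ova. For IC against Ova in DMSO cells these gave 3, 3 and 2 genes of the set and 4755, 4611 and 4062 of all genes, against 1 and 2531. In iBET cells they gave 4, 4 and 3 of the set and 3601, 3600 and 3102 of all genes, against 0 and 1474. For the interaction they gave 102, 185 and 47 of all genes, and DESeq2 without the block 24, against 5. Library size alone shifted the median of all genes from -0.02 to -0.13 in DMSO cells and from -0.01 to -0.12 in iBET cells for IC against Ova. The split of calls then went from 1196 higher and 1335 lower to 582 and 2593 in DMSO cells, and from 647 and 827 to 313 and 2030 in iBET cells, where 2343 genes and 1 of the set passed. Mice A and B alone gave 500 genes in DMSO cells, 296 in iBET cells and 0 for the interaction (edgeR), and mice C, D and E alone gave 1 of the set in iBET cells and 13 genes for the interaction.

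Leaving out each mouse gave 1180 to 2477 genes and 0 to 1 of the set in DMSO cells (0 without mouse C, D or E), 643 to 1177 genes in iBET cells and 0 to 2 for the interaction. With iBET and Ova 3 to 4 of the set passed, and with IC 4 to 5.

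The values that changed sign follow. For iBET with IC they were Socs1 (-0.0061, library size) and Cish (-0.12, mice A and B). For IC against Ova in DMSO cells, Stat2 was 0.0012 with the replicate block, 0.0039 without the filter, 0.023 with surrogate variables, 0.0076 in limma and 0.080 in mice A and B. Stat4 was -0.10 (library size), -0.020 (surrogate variables) and -0.017 (mice C, D and E), and Socs1 -0.0045, -0.034 and -0.17 (library size, surrogate variables, mice A and B). In iBET cells Stat4 was -0.046 with surrogate variables, Stat2 -0.033, Stat3 0.015 and Stat4 -0.11 in mice A and B, and Cish 0.013 in mice C, D and E. For the interaction Stat4 was -0.026 and Socs3 0.26 with surrogate variables, Stat4 -0.020 in limma, Stat2 -0.11, Stat4 -0.37 and Stat6 0.016 in mice A and B, and Socs3 0.0020 in mice C, D and E. Leaving out a mouse gave Stat2 -0.033 to 0.038 and Stat4 -0.025 to 0.098 in DMSO cells, Stat3 -0.028 to 0.0060 in iBET cells and an interaction of Socs3 up to 0.019. The cause was not tested. The lowest count of a gene of the set in a library was 79, for Stat4 with iBET and Ova.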
